A study of Rattus norvegicus with 12 samples.

Results

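Retinal transcriptomes of sham rats were compared between libraries labelled with a mimic of the microRNA miR-143 and libraries labelled with a scrambled RNA. The comparison held 3 libraries against 3 and covered the genes with at least 1 TPM in at least 3 of these 6 libraries, 15037 of the 32883 genes in the table. TPM is the number of reads on a gene divided by its length and scaled to the same total in every library. The 6 libraries belong to a series of 12, in which the other 6 came from pups with oxygen-induced retinopathy (OIR) given the same 2 RNAs. Every retina came from a wild-type Sprague Dawley rat at postnatal day 18, and the sham groups are labelled as controls without OIR. The labels list mimic and scrambled RNA as transfections. The sources used here give no dose, route or time since delivery, and do not describe the sham procedure.

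A microRNA guides an Argonaute protein to messenger RNAs that pair with its seed, most often in their untranslated ends, and pairing lowers the stability or translation of the message. Natural miR-143 is made from a shared transcript with miR-145 and is best known from smooth muscle of vessel walls. A mimic is a synthetic RNA meant to act as the mature strand, so a direct effect on messages would appear as lower levels of genes with seed sites. The scrambled RNA controls for delivery and for RNA load.

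The sequences of the 2 strands of rat miR-143 are shown because the mimic was designed after this microRNA. They come from RefSeq (build GRCr8), run 5′ to 3′, and have the seed, bases 2 to 8, in capitals.
rno-miR-143-3p: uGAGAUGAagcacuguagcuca
rno-miR-143-5p: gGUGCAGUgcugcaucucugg
Whether the mimic carried one or the other strand is not stated in the labels. None of the other mature rat microRNAs among the 724 in the table had either seed (0 for each). A message site that pairs with the whole 3p seed reads UCAUCUC, and one for the 5p seed reads ACUGCAC. Messages with such sites were not counted, because the 32883 identifiers are Ensembl numbers and 0 of them could be matched to a gene symbol or a sequence. For the same reason the retina was not checked against its marker genes, the level of miR-143 itself is not given, and genes are described by level, length and reads.

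Between 11061728 and 13175005 reads lay on genes in the 6 sham libraries. These numbers and the gene lengths were recovered from the steps of the TPM values. A single read in a gene of 2000 bases was worth 0.0781 to 0.0984 TPM. The labels speak of triplicate biological samples but do not tie libraries to animals. The p-values therefore measure only how far these libraries spread, which may in part be technical. Every mimic column carries the letter L and every scrambled column the letter R, so that letter and RNA given cannot be told apart. The names of the deposited columns also hold a number. It is shared by scrambled replicate 1 and mimic replicate 1, called the same-numbered pair below, and differs between the other 4 sham libraries.

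The whole-transcriptome profiles did not divide by the RNA given. The root-mean-square distance between libraries on the log2(TPM + 1) scale averaged 0.392 over the 6 pairs of the same group and 0.384 over the 9 pairs of a mimic and a scrambled library. The closest pair of all was sham scrambled replicate 3 and sham mimic replicate 2, at 0.337, and the farthest was sham scrambled replicate 1 and sham mimic replicate 2, at 0.459. All 15 pairs differed by more than counting error, since their read numbers gave chi-square values of 3.39 to 14.2 for each degree of freedom.

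**Figure D1:**
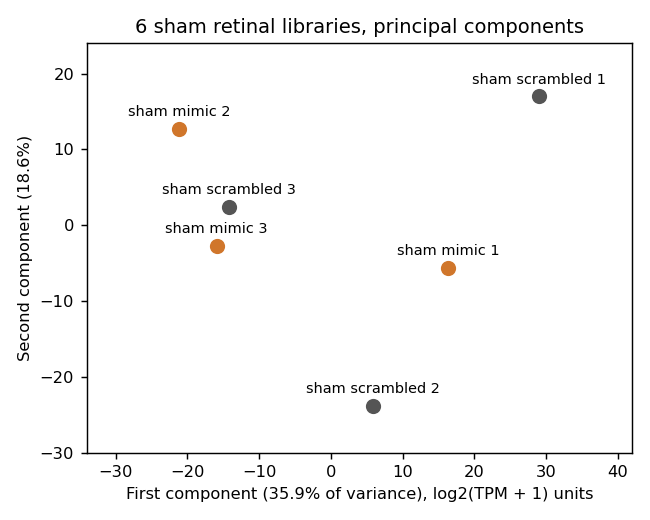
The 6 sham libraries on the first 2 principal components of log2(TPM + 1) over 15037 genes (horizontal and vertical axes, with the share of variance in the labels); grey points are scrambled and orange points mimic libraries. Mimic replicate 1 lies with scrambled replicates 1 and 2 on the right, and scrambled replicate 3 with mimic replicates 2 and 3 on the left.

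The first principal component held 35.9% of the variance and put 3 libraries on each side. Scrambled replicate 1 lay at 29.0, mimic replicate 1 at 16.3 and scrambled replicate 2 at 5.9. Scrambled replicate 3 lay at -14.2, mimic replicate 3 at -15.9 and mimic replicate 2 at -21.1. Each side therefore held libraries of both groups. The second component, with 18.6% of the variance, did not separate the groups either.

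No gene changed past the threshold with the mimic. In the fit of the 6 sham libraries, 0 of 15037 genes (0%) had a limma Benjamini-Hochberg adjusted p below 0.05, and the smallest adjusted p was 0.436. An unadjusted p below 0.05 was found for 402 genes, 2.67% of those tested, of which 165 (1.10%) were higher and 237 (1.58%) lower with the mimic. Limma voom on the recovered reads also called 0 genes and gave 337 at that unadjusted p. Single libraries moved the number of such genes: it was 1032 without sham scrambled replicate 3 and 951 without sham mimic replicate 1. The direction depended on the scaling, since 41.0% of these genes were higher with TPM as deposited, 51.9% after median-ratio scaling and 59.0% after quantile normalisation.

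The fold changes were small and most were estimated closely. The median log2 fold change, mimic minus scrambled, was -0.03, and the middle 90% of genes, from the 5th to the 95th percentile, lay between -0.31 and 0.20. The median standard error was 0.11. The unadjusted 95% interval lay wholly within a 2-fold change in either direction for 92.8% of the genes and within a 1.5-fold change for 78.1%. Among the 10220 genes with a mean of at least 10 TPM these shares were 98.2% and 92.6%. All of these values are on the log2(TPM + 1) scale, which understates the change of genes of low level, also at several TPM. ENSRNOG00000053557, described below, had means of 5.20 and 2.57 TPM. Its log2 fold change was -0.79, and -0.98 with 0.1 in place of the 1 added to the TPM.

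**Figure D2:**
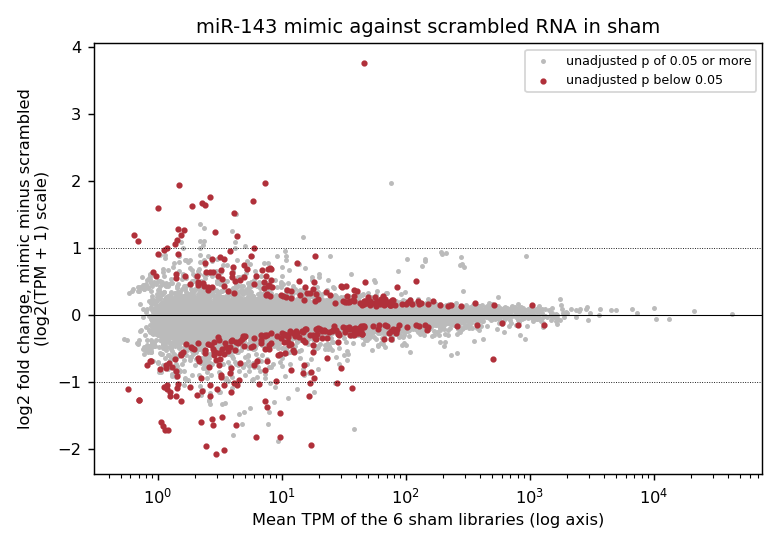
Each point is 1 of 15037 genes, with its mean TPM over the 6 sham libraries (horizontal, log axis) and its log2 fold change, mimic minus scrambled, on the log2(TPM + 1) scale (vertical); red points have an unadjusted p below 0.05, and dotted lines mark 2-fold. The points spread most below 10 TPM and draw together toward 0 at high levels.

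Precision rose with abundance while the share of low p-values was highest in the genes of low level. Below a mean of 10 TPM, 201 of 4817 genes (4.17%) had an unadjusted p below 0.05, and the median standard error was 0.19. Between 10 and 100 TPM there were 172 of 8271 genes (2.08%), and between 100 and 1000 TPM 27 of 1866 (1.45%). At 1000 TPM and above 2 of 83 genes (2.41%) had such a p, and the 95% interval of all 83 lay within a 2-fold change.

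The 10 most abundant genes, each with a mean of at least 3710 TPM, differed little between the groups. Their log2 fold changes lay between -0.06 and 0.10, with standard errors of up to 0.08, and the smallest unadjusted p among them was 0.161. Together they took 12.3%, 11.9% and 13.0% of the TPM in scrambled replicates 1, 2 and 3. In mimic replicates 1, 2 and 3 they took 12.2%, 12.5% and 13.2%, so the groups overlapped. The single most abundant gene stood at 42249, 41634 and 44832 TPM with scrambled RNA and at 41681, 42493 and 45460 TPM with the mimic.

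Large fold changes were rare and lay mostly in short, thinly read genes. On the log2(TPM + 1) scale, estimates beyond 2-fold were made for 106 genes (0.705%), 32 of them higher (0.213%) and 74 lower (0.492%) with the mimic. Of the 106, 64 had an unadjusted limma p below 0.05. At most 200 bases were recovered as the length of 88 of these 106 genes, and 93 had at most 100 reads in the 6 libraries together. Among all 15037 genes tested, 615 were that short and 1562 had that few reads. A mean of at least 10 TPM was reached by 13 of the 106 genes, against 10220 of all 15037 tested. The smallest p-values lay in part in thinly read genes too. Of the 20 genes with the smallest unadjusted p, 11 had at most 15 reads in the 6 libraries together. These 11 include the 10 genes described next, which passed the filter through 1 group only. The genes with so few reads among all tested were not counted, so no share stands beside this number.

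A total of 10 genes were listed at 0 in all 3 libraries of 1 group and passed the filter on low values through the other group. They were at 0 with the mimic in 7 cases and with scrambled RNA in 3, and all 10 are among the 20 with the smallest p. None of these genes had more than 2 reads in any library, and the longest was 156 bases. At these depths a difference of this kind is not detectable, and no fold change is given for them.

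Among the 12076 genes whose higher group averaged 5 TPM or more, the 12 with the smallest p in each direction were taken as a set. None passed the threshold, with a limma adjusted p of 0.969 for all 24. The groups of all 24 do not overlap, a property of 1025 genes (6.82%) among all tested, 435 higher (2.89%) and 590 lower (3.92%) with the mimic. The 24 were chosen for their p, so this is a description of them. The 12 higher genes had log2 fold changes of 0.20 to 1.18, lengths of 81 to 1747 bases and 17 to 4051 reads in the 6 libraries together. The 12 lower genes had log2 fold changes of -2.07 to -0.35, lengths of 70 to 3380 bases and 10 to 1437 reads. At most 200 bases was the length of 5 of them, against 1 of the 12 higher genes. Of all 15037 genes tested 615 were that short. Among those 615 short genes, limma gave an unadjusted p below 0.05 to 74, against 402 of all 15037 genes (2.67%). The 74 were 53 lower and 21 higher ones. Lower genes also outnumbered higher ones at 2001 to 4000 bases, with 62 against 8, and over 4000 bases, with 20 against 1. At 201 to 1000 bases there were 58 lower and 73 higher genes, and at 1001 to 2000 bases 44 and 62.

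**Figure D3:**
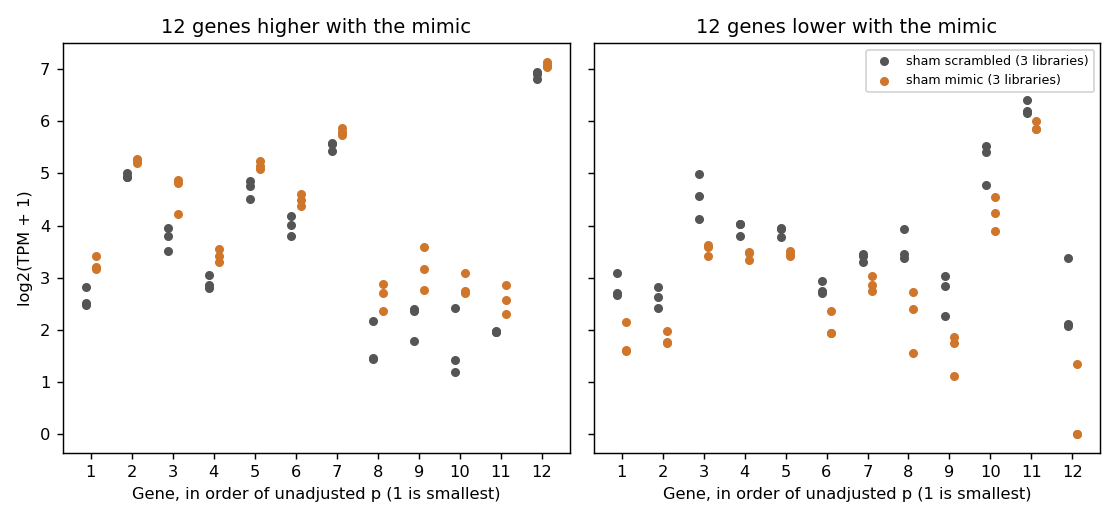
Level as log2(TPM + 1) (vertical) of the 12 genes with the smallest p in each direction (horizontal, in order of p) in each sham library; grey points are the 3 scrambled and orange points the 3 mimic libraries. The orange points lie above the grey ones in the left panel and below them in the right panel, as the choice of these genes by p makes likely.

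ENSRNOG00000056254, 294 bases long, had the smallest p of the higher genes. It stood at 6.02, 4.69 and 4.57 TPM in scrambled replicates 1 to 3 and at 9.73, 8.23 and 7.97 TPM in mimic replicates 1 to 3. These levels rest on 9, 8 and 8 reads with scrambled RNA and on 16, 15 and 15 reads with the mimic. All 3 mimic libraries lay above the scrambled libraries, with means of 5.09 ± 0.809 and 8.64 ± 0.951 TPM (SD, n = 3). On the log2 scale it was higher by 0.67 (SE 0.14), and its unadjusted p was 0.00189 (limma adjusted p 0.969).

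ENSRNOG00000014431, 561 bases long, was the next of the higher genes and rests on more reads. It stood at 31.2, 29.5 and 29.6 TPM with scrambled RNA and at 37.3, 37.7 and 35.9 TPM with the mimic. Its reads numbered 89, 96 and 99 with scrambled RNA and 117, 131 and 129 with the mimic. The groups were close together but apart, with means of 30.1 ± 0.967 and 37.0 ± 0.919 TPM (SD, n = 3). The log2 fold change was 0.29 (SE 0.07), and the limma adjusted p was 0.969.

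ENSRNOG00000053940, 156 bases long, had the smallest p of the lower genes. It stood at 7.57, 5.52 and 5.38 TPM with scrambled RNA and at 3.44, 2.07 and 2.00 TPM with the mimic. The levels come from 6, 5 and 5 reads and from 3, 2 and 2 reads. The groups did not overlap, but the difference between them was a few reads per library. Its log2 fold change of -1.04 (SE 0.21) had a limma adjusted p of 0.969.

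ENSRNOG00000053557, 968 bases long, was the next of the lower genes. Its levels were 6.10, 5.16 and 4.33 TPM with scrambled RNA and 2.96, 2.33 and 2.42 TPM with the mimic. They rest on 30, 29 and 25 reads against 16, 14 and 15. Every mimic library lay below every scrambled library, with means of 5.20 ± 0.883 and 2.57 ± 0.337 TPM (SD, n = 3). Its log2 fold change of -0.79 (SE 0.16) also had a limma adjusted p of 0.969.

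Levels also moved with gene length, and did so by library. The 615 genes of at most 200 bases had a median log2 fold change of -0.21, and 388 of them (63.1%) were lower with the mimic. The 2827 genes over 4000 bases had a median of -0.08, with 84.4% lower. Genes of 201 to 1000 bases had a median of 0.03 and those of 1001 to 2000 bases one of 0.01, with 44.2% and 45.7% lower. Over all genes 60.4% were lower. None of the 5 length classes held a gene past the threshold.

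**Figure D4:**
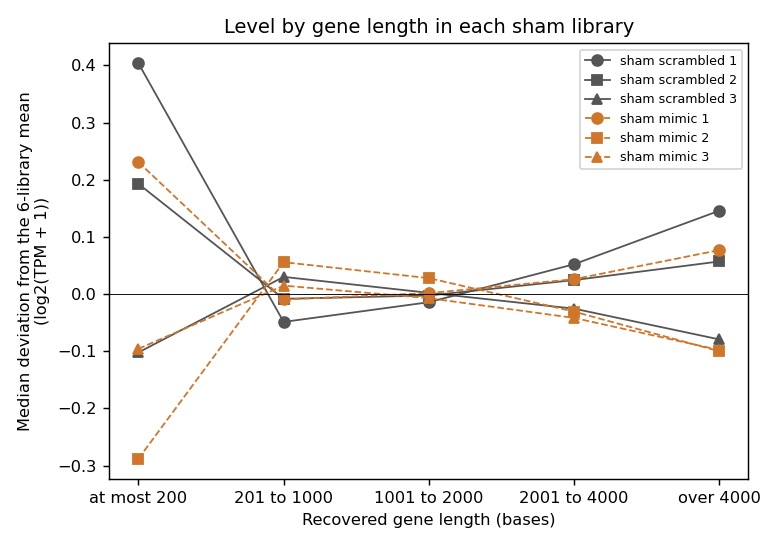
Median deviation of each sham library from the mean of the 6 libraries, in log2(TPM + 1) (vertical), for genes in 5 classes of recovered length in bases (horizontal); grey solid lines are scrambled and orange dashed lines mimic libraries. Scrambled replicates 1 and 2 and mimic replicate 1 lie high for the shortest and the longest genes, and the other 3 libraries lie low there.

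For the shortest class the median deviation from the mean of the 6 libraries was 0.40 in scrambled replicate 1, 0.23 in mimic replicate 1 and 0.19 in scrambled replicate 2. It was -0.10 in scrambled replicate 3, -0.10 in mimic replicate 3 and -0.29 in mimic replicate 2. The genes over 4000 bases divided the libraries in the same way, with 0.15, 0.08 and 0.06 against -0.08, -0.10 and -0.10 in the same order of libraries. The same 3 libraries lay on the positive side of the first principal component. Since 2 of these 3 are scrambled libraries and 1 is a mimic library, gene length moves with the group difference, and its part in the single-gene values was not tested. Without scrambled replicate 1 the median of the shortest class was -0.13, without mimic replicate 2 it was -0.11 and without mimic replicate 1 it was -0.31. In the median deviation of the shortest class, single libraries of a group spread with an SD of 0.258. The group difference of -0.21 compares 3 libraries with 3, and whether it exceeds that spread was not tested.

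Some genes were nearly absent from some sham libraries and well above that in others, in most cases with overlapping groups. A lowest level of at most 2 TPM and a highest of at least 40 TPM were found for 8 genes, limits that were chosen after the values were seen. The mimic and scrambled libraries overlapped for 7 of the 8, and the exception is the gene with the largest fold change, described further on. Of these 8 genes, 1 had an unadjusted p below 0.05, and the smallest adjusted p among them was 0.969. In 3 of the 8, the low libraries were exactly the same-numbered pair, 1 library from each group.

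ENSRNOG00000051257, 988 bases long, was listed at 0 TPM in both libraries of this pair, with 0 reads in each. It stood at 207.6 and 132.6 TPM in scrambled replicates 2 and 3 and at 113.0 and 141.5 TPM in mimic replicates 2 and 3, from 692 to 1191 reads. ENSRNOG00000055225, 68 bases long, was likewise at 0 in both and at 840.9, 463.8, 358.2 and 482.5 TPM in the same order of the other 4 libraries. ENSRNOG00000037911, 1811 bases long, stood at 0.760 and 1.28 TPM in the pair and at 71.2, 52.3, 40.4 and 51.1 TPM in the others. High and low levels of these genes occurred in both groups, and their unadjusted p for the mimic was 0.938, 0.927 and 0.938.

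**Figure D5:**
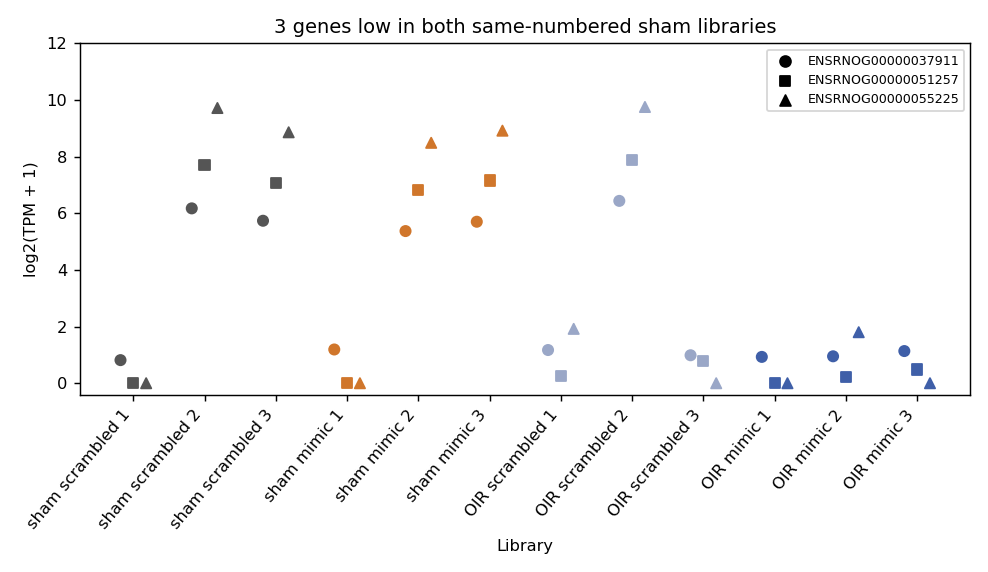
Level as log2(TPM + 1) (vertical) of 3 genes, each with its own symbol, in all 12 libraries (horizontal), colored by group. All 3 genes are low in scrambled replicate 1 and mimic replicate 1 of sham, high in the other 4 sham libraries, and high in 1 of the 6 OIR libraries.

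The 3 genes kept together in the OIR libraries as well. In OIR scrambled replicate 2 they stood at 235.5, 862.4 and 85.7 TPM in the same order of genes. In each of the other 5 OIR libraries none of the 3 exceeded 2.78 TPM. Across all 12 libraries the 3 genes were thus all high in 5, and none of them exceeded 2.78 TPM in the other 7.

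More genes set the same-numbered pair apart than any other pair of sham libraries. Among the 10220 genes with a mean of at least 10 TPM, 7 had both libraries of this pair more than 2-fold below or above each of the other 4 on the log2(TPM + 1) scale, 6 of them below. The other 14 pairs had 0 to 3 such genes. In overall distance the pair, at 0.362, was not the closest. With both libraries left out, 0 genes were called and 678 had an unadjusted p below 0.05.

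Some abundant genes rose and fell together from library to library. Of the 4207 genes with a mean of at least 50 TPM, 21 had a log2 fold change beyond 0.5 in either direction, 16 higher and 5 lower with the mimic, and 2 of them had an unadjusted p below 0.05. The smallest limma adjusted p among the 21 was 0.969. They were grouped by a Pearson correlation of at least 0.9 across the 6 sham libraries with the most abundant gene of each group, limits set after the values were seen, so the groups are a description.

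The largest group held 9 genes of 618 to 1171 bases, all with positive log2 fold changes, from 0.65 to 0.95. Their summed level was 765.2, 2546 and 1792.1 TPM in scrambled replicates 1 to 3 and 4609.3, 1348 and 3221.8 TPM in mimic replicates 1 to 3. Mimic replicates 1 and 3 were the highest, but mimic replicate 2 lay below scrambled replicates 2 and 3, so the groups overlapped. In OIR scrambled replicate 3 the same 9 genes summed to 21407.9 TPM, against 595.4 to 1756 TPM in the other 5 OIR libraries.

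A group of 4 genes of 556 to 660 bases went the other way, with log2 fold changes of -0.65 to -0.56 and a smallest unadjusted p of 0.044. They summed to 957.7, 1818.1 and 1264.6 TPM with scrambled RNA and to 672.9, 1122 and 814.9 TPM with the mimic. Mimic replicate 2 lay above scrambled replicate 1, so these groups overlapped too. A further 4 genes of 616 to 976 bases summed to 314.5, 880.2 and 550.8 TPM with scrambled RNA and to 1328, 325.4 and 1982.7 TPM with the mimic. In OIR they ranged from 12.7 TPM in mimic replicate 1 to 1041.7 TPM in scrambled replicate 3. The remaining 4 of the 21 genes each stood alone.

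A gene of 657 bases had the largest fold change of all genes, and single libraries set its value. It stood at 0.599, 40.4 and 1.79 TPM in scrambled replicates 1 to 3 and at 77.6, 55.5 and 101.8 TPM in mimic replicates 1 to 3. The scrambled group thus held 1 high library and 2 low ones. Its log2 fold change of 3.76 (SE 1.16) had an unadjusted p of 0.0162 and a limma adjusted p of 0.969. Without scrambled replicate 2 the log2 fold change was 5.19 and the limma adjusted p 0.0427. In OIR the same gene had 408 reads in mimic replicate 3 and 3 to 6 reads in each of the other 5 libraries.

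A gene of 5446 bases showed the clearest division of reads between the sham groups among the genes called under any other setting. It had 0, 5 and 2 reads in the scrambled replicates and 40, 47 and 41 in the mimic replicates. At its length only the mimic libraries reached 1 TPM among the sham libraries. The gene thus passed the filter only through the group where it is high, and the division is a description. It was called only without the trend and robust options of limma, with a log2 fold change of 1.10 and a limma adjusted p of 0.0234. In OIR its reads numbered 37, 1 and 3 with scrambled RNA and 36, 4 and 6 with the mimic, so that 1 library of each OIR group was high. Both of these genes are higher with the mimic, but other settings also called lower ones. Without sham scrambled replicate 3, 2 lower genes were called. Their reads were 268, 310 and 52 against 40, 51 and 34 with the mimic, and 180, 190 and 43 against 31, 22 and 24. Without sham mimic replicate 2, 1 lower gene was called, with 55, 62 and 86 reads against 3, 96 and 5. All of these genes were singled out after their values were seen.

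The mimic effect in sham was then set against that in OIR, where it was measured in 6 other libraries. In a fit of all 12 libraries, 0 of the 15037 genes (0%) were called for the mimic in OIR, and 1441 (9.58%) had an unadjusted p below 0.05. The difference of the 2 effects was called for 0 genes (0%), with a smallest limma adjusted p of 0.180. At an unadjusted p below 0.05 it gave 539 genes (3.58%), and 668 with limma voom, which also called 0. The median standard error of this difference was 0.18.

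Genes with a low p in sham and in OIR were then compared. An unadjusted p below 0.05 in both was found for 60 genes, 14.9% of the sham genes and 4.16% of the OIR genes. Over all genes tested the shares with such a p were 9.58% in OIR and 2.67% in sham. Of the 60 genes, 40 had the same direction in both. The sign of the 2 effects matched for 60.0% of the 402 sham genes, and for 61.6% of all genes tested. The OIR p came from the fit of all 12 libraries, whose spread includes that of the sham libraries. A gene with a small spread in sham can therefore have a low p in both lists. These shares are descriptions for that reason, and because genes are not independent of each other.

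The 24 genes with the smallest p in sham showed no common direction in OIR. Of the 12 higher genes, 6 had a positive and 6 a negative log2 fold change there, with a median of -0.01 against 0.57 in sham. The 12 lower genes likewise divided into 6 and 6, with a median of -0.01 against -0.90. The 24 were chosen for their sham values, so the larger sham medians follow from the choice. ENSRNOG00000056254 stood in OIR at 7.73, 6.49 and 3.63 TPM with scrambled RNA and at 1.86, 3.45 and 4.70 TPM with the mimic, a log2 fold change of -0.69 (SE 0.27). For ENSRNOG00000014431 the value in OIR was 0.17 (SE 0.08). The 2 lower genes had positive values in OIR, 0.74 (SE 0.39) for ENSRNOG00000053940 and 0.13 (SE 0.19) for ENSRNOG00000053557. The limma adjusted p of the difference was 1.00 for each of the 4 genes.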

How the data were processed

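Retinal RNA was sequenced from 12 rat libraries in 4 groups of 3, and the 6 sham libraries are compared here. The deposited values are TPM in a single table, in 12 columns that the lines above the table pair with the sample titles (0 columns left unassigned). Per the submitters' processing notes, FastQC, TopHat, Cufflinks, Cuffdiff and the build rn6 were used; their roles, the counting tool and the annotation: not given in the sources used here. Per the labels' protocols the libraries were made from miRNA, whereas the table lists Ensembl genes.

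The log2(TPM + 1) values of the genes kept entered limma 3.58.1, run in R 4.3.3 (eBayes, trend and robust, 4 residual degrees of freedom; 8 for the fit of 12 libraries), two-sided, with Benjamini-Hochberg adjustment over all 15037 genes and a threshold of 0.05. Code was tested on simulated data. Reads were recovered for 22310 of 22310 genes above 0 as the smallest whole numbers that fitted (tolerance 0.02); TPM recomputed from them had a relative error of at most 5.42e-08. Reads and length of a thinly read gene could both be a multiple of those given.

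The members, lists and rules were chosen with earlier results of these data known. Of the genes given by identifier, the first 4 follow a rule: smallest unadjusted p in each direction where the higher group averaged 5 TPM or more, 12 per direction, the first 2 by identifier. The gene lists, markers, seed sites and genes by symbol that were planned could not be used, since 0 identifiers matched the 47357 genes of the reference table. Same-numbered replicates of the titles were checked for pairing: their deviations from the group means had correlations of 0.274, -0.0606 and 0.105, in replicate order. The highest, 0.274, belongs to the only sham libraries that share a column number, the same-numbered pair described above. The other values come from libraries with different column numbers, so they cannot decide whether that pair is related. No pairing was assumed, and the main fit treated all sham libraries as independent. Other settings covered pseudocounts, filters, scaling, weights, voom, a replicate block and leaving out libraries.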

Additional observations from a re-analysis of the deposited data

How the results depend on the processing

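For the mimic in sham, 14 of 18 other settings called 0 genes. Without the trend and robust options limma called 7 genes, 6 of which had 3 reads in the 6 libraries together. With 1 library left out the number was 0 to 2. Leaving out sham scrambled replicate 3 gave 2 genes lower with the mimic. Leaving out scrambled replicate 2 gave 1 higher gene, and leaving out mimic replicate 2 gave 1 lower gene. With the replicate block 0 genes were called and 824 had an unadjusted p below 0.05; with arrayWeights that number was 2708 and with a filter of 5 TPM 258. For the difference of the mimic effect, 12 of 16 settings called 0 genes, arrayWeights called 1 and a pseudocount of 0.1 called 2; leaving out 1 library at a time gave 0 to 1 (1 without sham mimic replicate 2 and 1 without OIR scrambled replicate 3), and the replicate block gave 0. Voom for this difference was added after seeing the data. The cause of these changes was not tested. The 71 values of the 4 genes given first by identifier kept their direction and 0 passed the threshold. A fit with the libraries that share a column number as a correlated pair gave no estimate of the correlation and was not run, and settings that need gene names were not run. Depth limits genes of few reads: 1562 of the genes tested had at most 100 reads in the 6 libraries.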
